A study of Homo sapiens with 7 samples.

Results

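Long non-coding RNAs recognised by their names were followed in A549 cells, a line of epithelial cells from a human lung adenocarcinoma, after 2 treatments that make cells senescent. A gene was a member when its symbol began with LINC and a digit or with SNHG and a digit, ended in -AS and a digit, or had the form of a microRNA host gene (MIR...HG). The rule took 37 of the 14535 genes in the count table. These were 19 LINC genes, 16 antisense genes, the small nucleolar RNA host SNHG4 and the microRNA host MIRLET7BHG. GAS5, MALAT1, NEAT1, H19, MEG3, CYTOR and PVT1, which the rule also names, were not analysed here. In RefSeq 36 of the 37 were long non-coding RNAs. The exception was LINC00998, which RefSeq lists as the protein-coding gene SMIM30, so the name no longer fits its class.

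In 3 libraries the cells had received doxorubicin, a drug that traps topoisomerase II and breaks DNA, at 100 nM for 24 h. In the other 4 libraries they had been stretched in cycles for 24 h, by 15% of their length and 15 times per min. Staining for β-galactosidase, an enzyme activity used as a mark of senescent cells, followed after 6 days, and RNA was sequenced from sorted positive cells. Every group was therefore treated, sorted and of a single cell line, and no untreated cells were analysed here. The labels do not tell whether replicates were grown as separate cultures. The p-values here therefore reflect spread among the libraries at hand, and that spread may be technical. RNA was measured in bulk, where fewer cells making a transcript and less of it per cell cannot be told apart.

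Long non-coding RNAs are transcripts that are spliced and often polyadenylated like messenger RNAs but are not thought to encode long proteins. Host genes of small RNAs are transcribed so that a small nucleolar RNA, which guides modification of ribosomal RNA, or a microRNA, which represses messenger RNAs, can be cut from an intron or exon. Antisense genes overlap or start beside a coding gene on the other strand, and LINC genes lie between coding genes. Some symbols of both kinds belong to divergent transcripts that leave a coding gene's promoter in the opposite direction.

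The sequences shown here are those of the let-7 microRNAs that MIRLET7BHG carries, because they tell which product the host name stands for. The let-7a-3 and let-7b hairpins lie in exonic sequence of MIRLET7BHG on the plus strand of chromosome 22, at chr22:46112752-46112773 and chr22:46113691-46113712 for the mature 5p strands, in RefSeq's GRCh38.p14. Capitals mark the seed, bases 2 to 8, of each microRNA.
hsa-let-7a-5p: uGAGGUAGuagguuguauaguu
hsa-let-7b-5p: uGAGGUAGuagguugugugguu
The 2 let-7 microRNAs share the seed GAGGUAG. The values below belong to the host transcripts of both kinds, and the small RNAs themselves were not measured.

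The libraries were unequal in depth and in composition. Total counts ran from 2611766 to 4644650 after doxorubicin and from 5636494 to 7419798 after stretch. EIF4A2, a translation initiation factor gene that also hosts small nucleolar RNAs, took 16.1%, 30.6% and 10.8% of the counts in doxorubicin libraries 1, 2 and 3 and at most 2.87% in stretch. Doxorubicin libraries correlated with each other at 0.754 to 0.884 (Pearson, log-CPM across genes), and stretch libraries at 0.939 to 0.978. Of the epithelial markers KRT8, KRT18, KRT19, EPCAM and CDH1, each had counts in both groups. Their summed level was 1932 to 3475 CPM after doxorubicin and 950 to 1270 CPM after stretch, and the markers did not move together (CPM, counts scaled to a common library size after TMM, a normalization that lessens the weight of a few dominant genes). KRT18 was higher in doxorubicin, at 2116 ± 956 against 460 ± 46.5 CPM, and passed (adjusted p = 0.0199 by edgeR), whereas EPCAM had 3.26 ± 2.07 against 12.7 ± 2.11 CPM with ranges apart and did not pass. The 5 fibroblast markers (COL1A1, COL3A1, LUM, DCN and PDGFRA) summed to 10.96 to 20.8 CPM after doxorubicin and 8.97 to 11.5 CPM after stretch. The endothelial marker CDH5 was at 0 in every doxorubicin library and at most 0.963 CPM after stretch, and PECAM1 and VWF were not analysed here. Of the leukocyte markers PTPRC and CD3E were not analysed here, and CD68 and LYZ together amounted to 89.2 to 129 CPM after doxorubicin and 47.1 to 49.6 CPM after stretch. Of these CD68, which many cell types express in lysosomes, passed, higher in doxorubicin (adjusted p = 0.0158 by edgeR). What the markers contribute to any member's value was not tested.

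Members made up a small part of each library. Their counts summed to 1003, 525 and 2185 in doxorubicin libraries 1, 2 and 3, and to between 2298 and 3110 in the stretch libraries, or 0.0201% to 0.0470% of all counts. SNHG4 alone gave 48.9% of the member counts over all libraries. Only 6 members reached a mean of 10 CPM. Doxorubicin library 2 had no count for 15 of 37 members (40.5%), where 21.2% of all genes had none. In stretch library 5 every member had a count, and the other stretch libraries lacked 3 or 4. A count of 0 allowed up to 2.59 CPM in doxorubicin library 2 (3 counts) and up to 0.321 to 0.401 CPM in stretch, counting error only.

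**Figure D1:**
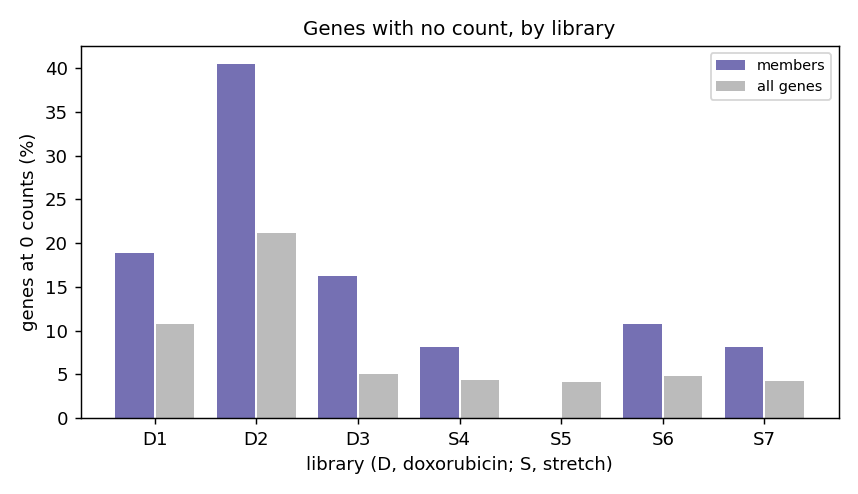
Percentage of genes with a count of 0 in each library (x axis: D1 to D3 doxorubicin, S4 to S7 stretch), for the 37 members and for all 14535 genes. The highest pair of bars is that of doxorubicin library 2, 40.5% of members against 21.2% of all genes.

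No member passed an adjusted p of 0.05 between stretch and doxorubicin. Of the 37, 21 had enough counts to be tested, and 0 of these passed (quasi-likelihood F-test of edgeR, Benjamini-Hochberg adjustment over 11230 genes), against a background of 2.32% of all tested genes. At an unadjusted p under 0.05 there were 2 members, SNHG4 and ZNF561-AS1, where 23.2% of all genes stood. By limma-voom 0 members passed, where 1.66% of all genes did. DESeq2 gave 29 members an adjusted p and SNHG4 passed, higher in doxorubicin, as did 6.94% of all genes in that direction. With library quality weights in limma-voom 5 of 21 passed, where 47.0% of all genes did. The fitted log2 fold change (stretch minus doxorubicin) lay on the stretch side for 13 members and on the doxorubicin side for 8. Their median was 0.30, beside 0.02 over all tested genes, and it was -0.21 when doxorubicin was represented by library 3 only. In that comparison 0 of 28 members passed by edgeR, against 0.802% of all genes, but the stretch libraries alone give its spread and the lone doxorubicin library is assumed to vary like them. Leaving library 3 out instead, 3 of 22 members passed, against 32.2%.

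Intervals were wide for most members. Of the 21 tested, EXOC3-AS1 alone had a 95% interval within 2-fold either way (log2 fold change -0.63 to 0.98). The intervals of the other 20 reached beyond 2-fold on at least 1 side. In doxorubicin library 2, 17 of the 21 tested members had under 10 counts.

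**Figure D2:**
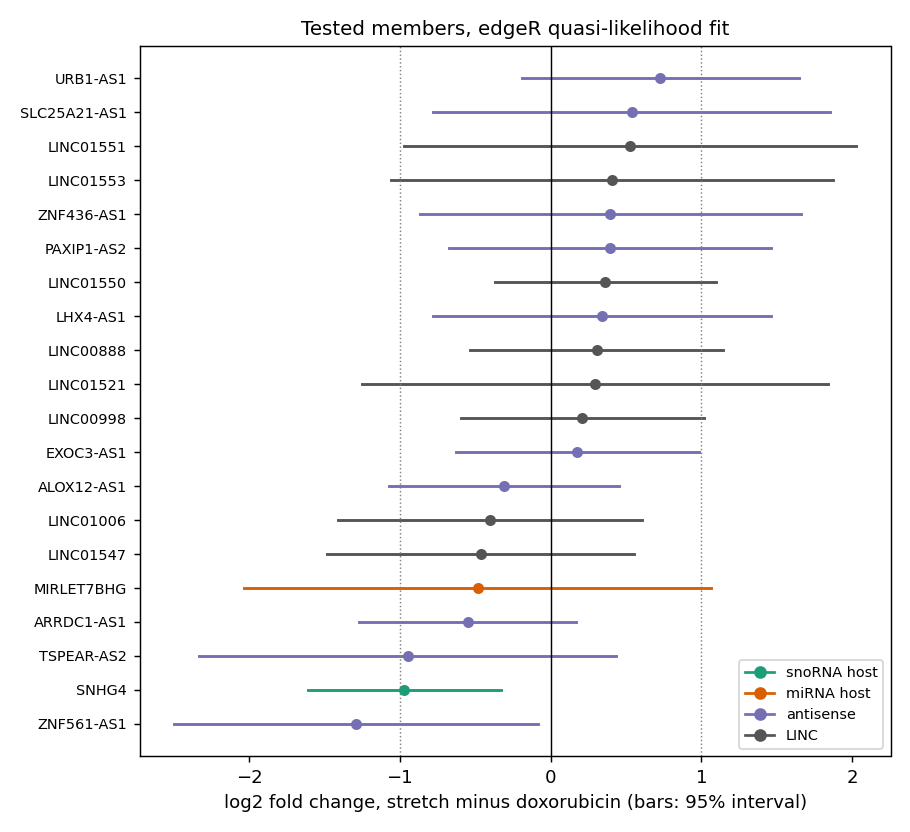
Log2 fold change (x axis, stretch minus doxorubicin) of 20 of the 21 tested members with 95% intervals, coloured by name class; dotted lines mark 2-fold. Intervals of SNHG4 and ZNF561-AS1 lie below 0, and those of the other members cross it.

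SNHG4, a small nucleolar RNA host gene (chromosome 5, 139274102 to 139284899, plus strand), stood higher in every doxorubicin library than in any stretch library. It had 233, 356 and 226 CPM in doxorubicin libraries 1, 2 and 3, and 138, 132, 132 and 152 CPM in stretch libraries 4, 5, 6 and 7. The group ranges do not overlap, and doxorubicin library 2 is the highest. Ranges were apart in 2 of 21 tested members (both with stretch below) and in 21.4% of all tested genes, 9.88% with stretch below. The means were 272 ± 73.3 CPM (SD, n = 3) and 139 ± 9.38 CPM (n = 4), a 1.96-fold difference. The log2 fold change was -0.97 (SE 0.29, 95% interval -1.61 to -0.33), with an adjusted p of 0.0878 by edgeR's quasi-likelihood test. It kept this sign in all 18 alternatives, between -1.06 and -0.14. An adjusted p under the threshold came in 3 of them: DESeq2 (0.0160), limma-voom with library quality weights (0.00169) and edgeR without doxorubicin library 3 (0.0131). The value nearest to 0 came from scaling by library totals alone, where the median of all tested genes moved from 0.02 to 0.71. Relative to that median SNHG4 stood at -0.99 with TMM and -0.84 with totals. With EIF4A2 and TAF1D left out of the table its log2 fold change was -0.95.

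SNHG4 shares its first exon with MATR3, the gene of a nuclear matrix protein that binds RNA. In GENCODE 29 the 2 genes share 626 exonic bases on the same strand, or 14.0% of the exonic bases of SNHG4, so counts could have been divided between them. MATR3 had 145, 161 and 118 CPM after doxorubicin and 111, 96.4, 110 and 108 CPM after stretch. Its ranges do not overlap either, and its log2 fold change was -0.40 (SE 0.27, adjusted p = 0.379 by edgeR).

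Small nucleolar RNA hosts that code for proteins were taken from a list of 34 genes, of which 32 were tested. Of these 6 passed, all higher in doxorubicin (EIF4A1, EIF4A2, RPL10, RPL23, RPS2 and TAF1D), where 1.97% of all tested genes passed in that direction. The list was chosen with earlier results of these data known, so setting it against that share does not test it. A total of 28 lay on the doxorubicin side, and the list's median was -0.71. RPS2, a ribosomal protein gene, had 38562, 95603 and 32299 CPM in the 3 doxorubicin libraries and 5043 to 6912 CPM in stretch. Its difference was -3.20 on the log2 scale (SE 0.45), with an adjusted p of 0.0112 by edgeR. EIF4A2 had a log2 fold change of -4.21 and RPL10 of -2.28. Without doxorubicin library 2 EIF4A2 stood at -3.11 and RPS2 at -2.54, and both still passed. All 3 lost the call when any 1 stretch library was left out, with adjusted p between 0.0529 and 0.1004 by edgeR and values between -4.30 and -2.20. In those fits only 0.109% to 0.359% of all tested genes passed. LINC00888, now named SNHG33 in RefSeq and holding SNORA63D in an intron, is a further small nucleolar RNA host among the members. Its levels were 8.34, 5.19 and 4.54 CPM after doxorubicin and 5.87, 9.09, 7.03 and 7.64 CPM after stretch. They overlap, and its fitted difference, 0.31 (SE 0.38), lay on the side opposite to that of SNHG4.

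MIRLET7BHG (chromosome 22, 46053869 to 46113928, plus strand), whose transcript carries let-7a-3 and let-7b, microRNAs known as brakes on proliferation, was weakly counted. It had 1.59, 5.19 and 1.51 CPM after doxorubicin, from 4, 6 and 8 counts, and 2.54, 1.71, 0.432 and 1.94 CPM after stretch. The groups overlap, with doxorubicin library 2 the highest. Its log2 fold change was -0.48 with an interval of -2.03 to 1.07, and 0.09 without doxorubicin library 2. Genes of microRNA processing had 0 of 12 tested genes past the threshold (2.32% of all genes by edgeR), with 4 at an unadjusted p under 0.05 (23.2% of all genes) and a median of -0.16. RAN, the GTPase that powers export of precursor microRNAs with XPO5, stood at 283 ± 66.4 CPM (n = 3) against 601 ± 42.2 CPM (n = 4). XPO5 itself stood at 8.05 ± 1.85 against 15.7 ± 4.57 CPM, and AGO2, the slicer that microRNAs load into, at 100.2 ± 54.0 against 47.2 ± 5.17 CPM.

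**Figure D3:**
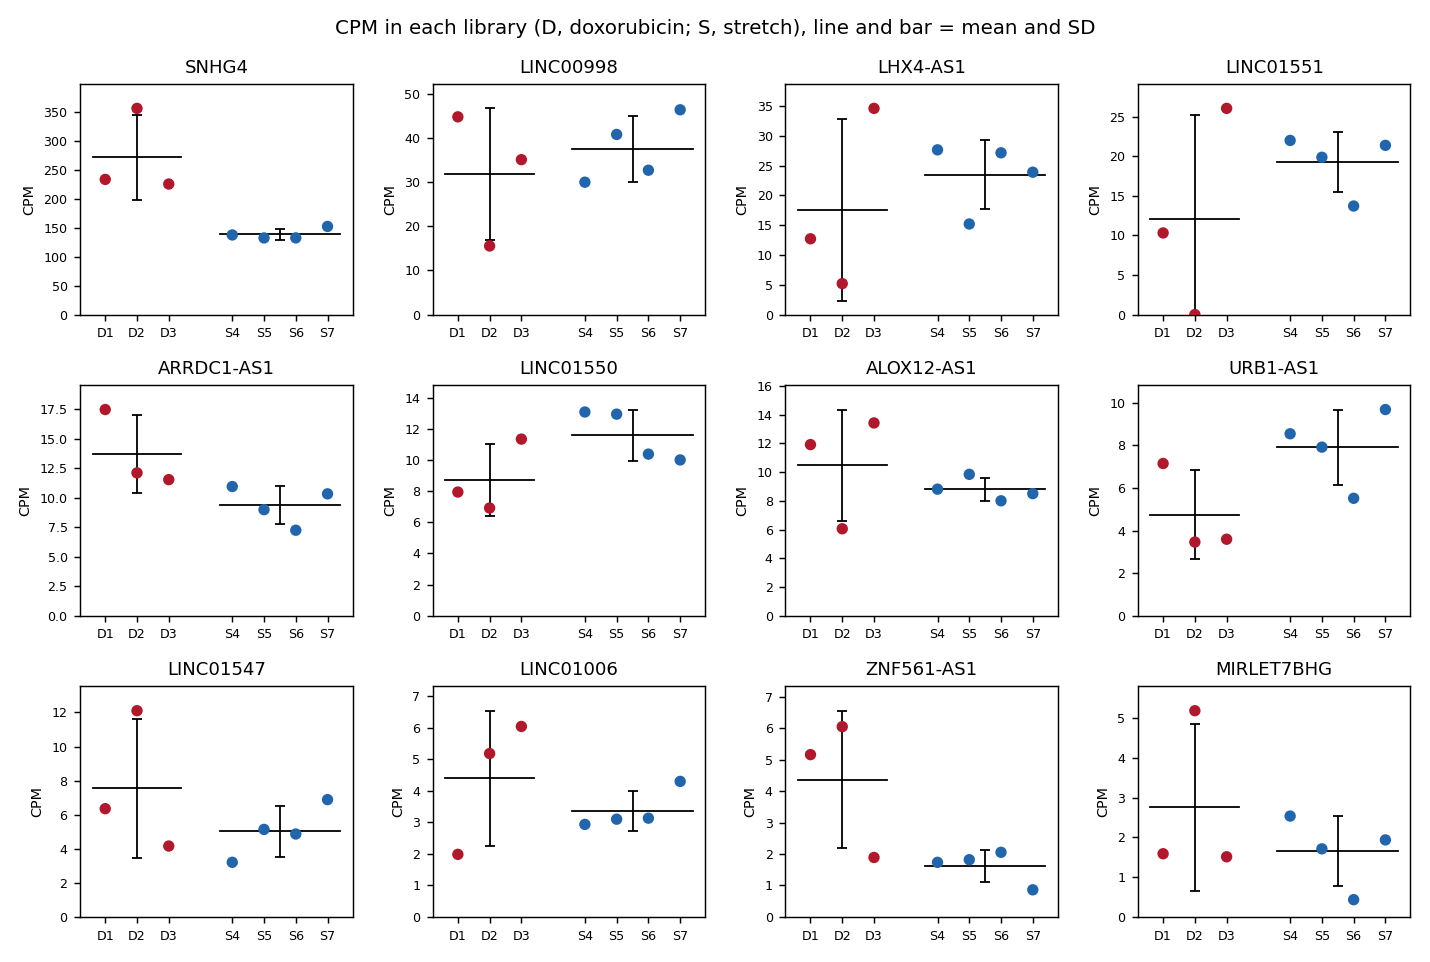
CPM of 12 members in each library (y axes from 0; D1 to D3 doxorubicin in red, S4 to S7 stretch in blue), with the mean and SD of each group. SNHG4 and ARRDC1-AS1 show no overlap between groups, and doxorubicin library 3 is the highest point for LHX4-AS1, LINC01551, LINC01006 and ALOX12-AS1.

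Among antisense genes 11 of 16 were tested, 7 on the stretch side and 4 on the doxorubicin side, with a median of 0.34. ZNF561-AS1 (chromosome 19, 9621291 to 9645896, plus strand) had the widest fitted difference of all tested members. It stood at 5.16, 6.05 and 1.89 CPM after doxorubicin, from 13, 7 and 10 counts, and at 1.74, 1.82, 2.05 and 0.861 CPM after stretch. Doxorubicin libraries 1 and 2 were above all stretch libraries, and library 3 lay within their range. The log2 fold change was -1.29 (SE 0.55, adjusted p = 0.189 by edgeR), and -0.21 with doxorubicin library 3 alone. It passed in 2 of 17 alternatives, without doxorubicin library 3 (-1.73) and with library quality weights (-1.70). Its exons share 2461 bases, 52.8% of the total, with ZNF562 on the other strand. The deposited counts are not stated to use strand, so reads of such pairs may not have been told apart.

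ARRDC1-AS1 (chromosome 9, 137615332 to 137618906, minus strand), once named C9orf37, was the other tested member whose groups did not overlap. Its levels were 17.5, 12.1 and 11.5 CPM after doxorubicin, and 10.9, 8.99, 7.24 and 10.3 CPM after stretch. Doxorubicin library 3 exceeded stretch library 4 only narrowly. The log2 fold change was -0.55 (SE 0.33, adjusted p = 0.331 by edgeR). It was 0.20 with library totals alone, or -0.51 relative to the median of all genes in that scaling.

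LHX4-AS1 and LINC01551 split the doxorubicin libraries. LHX4-AS1 (chromosome 1, 180269663 to 180274681 in RefSeq), antisense to a LIM-homeobox factor gene, had 12.7, 5.19 and 34.6 CPM after doxorubicin and 27.6, 15.2, 27.1 and 23.9 CPM after stretch. Doxorubicin libraries 1 and 2 lay below every stretch library and library 3 above every one. The log2 fold change was 0.34 (SE 0.51), and it was 1.32 without doxorubicin library 3, where it passed (adjusted p = 0.0339 by edgeR), -0.03 without library 2 and -0.54 with library 3 alone. LINC01551 (chromosome 14, 28772704 to 28813453, plus strand) had 10.3, 0 and 26.1 CPM after doxorubicin and 22.0, 19.9, 13.7 and 21.4 CPM after stretch. Its log2 fold change was 0.53 (SE 0.68), 1.66 without doxorubicin library 3 and -0.42 with library 3 alone. LINC01521 was split like these 2 members, with 1, 0 and 11 counts in doxorubicin libraries 1, 2 and 3.

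By its CPM values, mostly from few counts, doxorubicin library 2 was outside the stretch range for every tested member. Of the 21 tested members, doxorubicin library 2 lay below the range of the 4 stretch libraries for 15 and above it for 6, and within it for 0. It had under 10 counts for 17 of the 21, and 0 for 5, all placed below. A 0 there allowed up to 2.59 CPM, above every stretch value of TSPEAR-AS2 and LINC01521, so their position cannot be told. Over all tested genes the shares were 48.0% below, 35.3% above and 16.7% within. Doxorubicin library 3 lay within the stretch range for 8 members, above it for 9 and below it for 4, where all tested genes had 43.3%, 28.4% and 28.3%. Library 1 was within it for 8, above for 6 and below for 7, where all tested genes had 29.1%, 35.3% and 35.6%.

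URB1-AS1 (chromosome 21, 32393130 to 32393960, plus strand) had the highest fitted difference toward stretch among the tested members. It stood at 7.15, 3.46 and 3.59 CPM after doxorubicin and 8.54, 7.92, 5.51 and 9.68 CPM after stretch. Only doxorubicin library 1 lay inside the stretch range. The log2 fold change was 0.73 (SE 0.42, interval -0.19 to 1.65, adjusted p = 0.312 by edgeR), positive in all 17 alternatives that gave a value, from 0.21 to 1.46. ALOX12-AS1 had 11.9, 6.05 and 13.4 CPM after doxorubicin and 8.0 to 9.84 CPM after stretch, with library 2 below and libraries 1 and 3 above the stretch range. A further 5 tested antisense genes (EXOC3-AS1, PAXIP1-AS2, SLC25A21-AS1, ZNF436-AS1 and TSPEAR-AS2) had fitted values between -0.95 and 0.54, and all of these overlapped between groups.

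LINC genes had 8 of 19 tested members, 6 on the stretch side, with a median of 0.30 and a lowest adjusted p of 0.528 by edgeR. LINC00998 (SMIM30, chromosome 7, 113116718 to 113118554 in RefSeq), which codes for a small membrane protein, stood at 44.9, 15.6 and 35.2 CPM after doxorubicin and 30.0, 40.9, 32.8 and 46.5 CPM after stretch. Library 2 was low and the other doxorubicin libraries lay within the stretch range. Its log2 fold change was 0.21 (interval -0.60 to 1.02), and -0.08 without library 2. LINC01550 had 7.94, 6.92 and 11.3 CPM after doxorubicin against 11.6 ± 1.64 CPM (SD, n = 4) in stretch, a log2 fold change of 0.36 (interval -0.37 to 1.10). LINC01547 and LINC01006 had fitted values of -0.46 and -0.40. LINC01547 was highest in doxorubicin library 2, at 12.1 CPM against 3.20 to 6.89 CPM in stretch, and LINC01006 was highest in doxorubicin library 3, at 6.05 CPM against 2.94 to 4.30 CPM.

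The 16 members that were not tested were close to the detection limit. Their totals over 7 libraries ran from 4 counts for LINC01098 to 46 counts for LINC01559, no single count exceeded 13, and 11 of them stayed under 10 counts in every library. Doxorubicin library 2 had none for 10 of them. These were the antisense genes GAS8-AS1, SEPSECS-AS1, C1QTNF1-AS1, KLF3-AS1 and PTGES2-AS1, and 11 LINC genes. With no filter on low counts all 37 members were tested by edgeR, and 0 passed.

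Of the 35 with an entry in GENCODE 29, 16 started within 1000 bases of the start of a coding gene on the other strand, and 11 of those within 200 bases. They were 12 antisense genes, 3 LINC genes and MIRLET7BHG. Exonic bases were shared with a coding gene on the other strand in 13 members. RefSeq now names 3 members as divergent transcripts: LINC01006 as RNF32-DT, PTGES2-AS1 as PTGES2-DT and SEPSECS-AS1 as SEPSECS-DT. A former open reading frame name, such as C21orf119 for URB1-AS1, was found for 17 members. In the 300 bases around the start held by RefSeq for 27 members, the median GC content was 62.7%, against 58.3% for 27305 promoters. It was 70.7% for the 11 of these 27 with a coding start within 1000 bases on the other strand, and 58.5% for the other 16. The letters TATAAA on the gene's strand were in 1 of the 27 (3.70%, against 7.71% of all), namely LINC00998, which RefSeq lists as protein-coding. CCAAT on either strand was in 7 (25.9%, against 35.7%).

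Members and the coding genes that start beside them were set side by side for the 11 pairs with both tested, of which 10 are drawn. In 4 of the 11 pairs the fitted values had the same sign, and no partner passed the threshold. ZNF561-AS1 and ZNF561, a zinc finger gene that starts 55 bases away, lay furthest apart. ZNF561 had 1.99, 2.59 and 4.54 CPM after doxorubicin, from only 5, 3 and 24 counts. After stretch it had 7.74, 8.56, 7.57 and 8.50 CPM, with no overlap. Its log2 fold change was 1.31 (SE 0.40, adjusted p = 0.0963 by edgeR), where that of ZNF561-AS1 was -1.29. With doxorubicin library 3 alone the fitted values were 0.85 for ZNF561 and -0.21 for ZNF561-AS1. EHMT1, a histone methyltransferase gene starting 57 bases from ARRDC1-AS1, had 5.41 ± 3.19 CPM (n = 3) against 11.5 ± 2.44 CPM (n = 4) and a log2 fold change of 0.96, where the member had -0.55. EXOC3, of the exocyst that tethers secretory vesicles, had 58.4, 47.6 and 30.6 CPM after doxorubicin and 26.01 ± 2.16 CPM (SD, n = 4) after stretch, a log2 fold change of -0.80, where EXOC3-AS1 had 0.18. Whether the members of a pair differ was not tested.

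**Figure D4:**
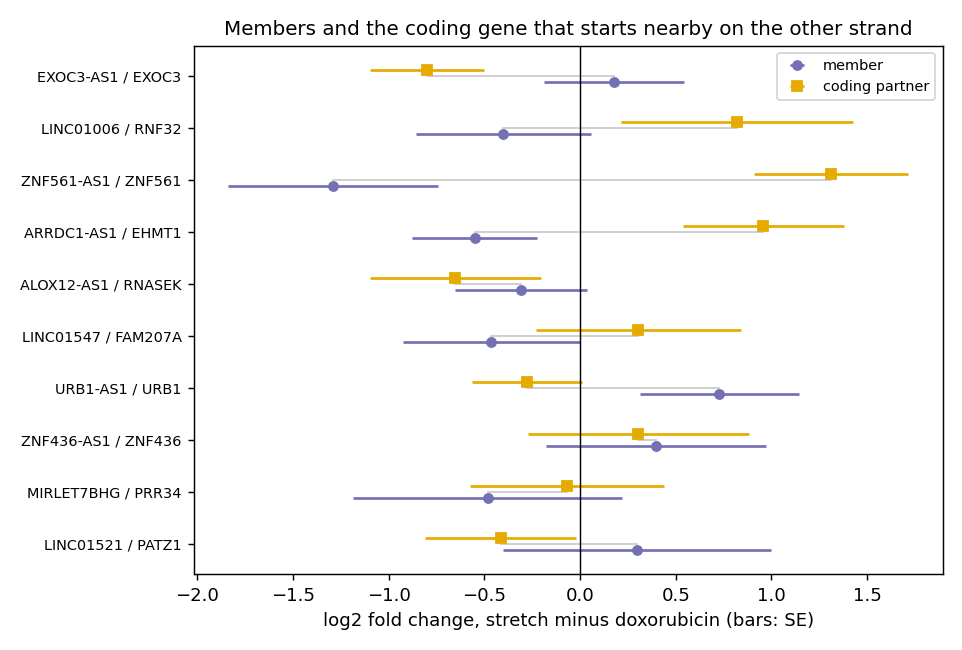
Log2 fold change (x axis, stretch minus doxorubicin, bars SE) of 10 members and of the coding gene that starts within 1000 bases on the other strand, ordered by distance. ZNF561-AS1 at -1.29 and ZNF561 at 1.31 are the widest pair.

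Coding genes were also taken from further lists. These are to be read against 2.32% of all tested genes past the threshold and 23.2% at an unadjusted p under 0.05. Nonsense-mediated decay, which removes spliced host transcripts once they are translated, had 0 of 15 tested factors past the threshold by edgeR, 1 at an unadjusted p under 0.05 (RBM8A, log2 fold change 1.26), and a median of -0.05. Without doxorubicin library 3 RBM8A, an exon junction protein gene, stood at 2.13 and passed (adjusted p = 0.00293 by edgeR), as did 32.2% of all genes. RBM8A stood at 0.88 without doxorubicin library 2 and at 0.40 with doxorubicin library 3 alone. Paraspeckle proteins, which assemble on the RNA NEAT1, had 0 of 13, with 5 at an unadjusted p under 0.05 and a median of 0.53. Among them NUDT21 had 62.9 ± 22.7 CPM (n = 3) against 127 ± 44.1 CPM (n = 4), and HNRNPK 31.4 ± 26.8 against 70.3 ± 8.93 CPM. The log2 fold change of HNRNPK was 1.11, and 2.13 without doxorubicin library 3, where it passed (adjusted p = 0.00110 by edgeR). Targets of p53, the factor that doxorubicin activates and that controls several long non-coding RNAs, had 0 of 22, with 6 at an unadjusted p under 0.05 and a median of -0.24. CDKN1A, the p21 inhibitor of the cell cycle, had 898, 919 and 292 CPM after doxorubicin and 219 to 271 CPM after stretch, without overlap (log2 fold change -1.52, adjusted p = 0.0651 by edgeR). GDF15, a secreted stress factor, had 70.3 ± 29.2 CPM (n = 3) against 151 ± 24.2 CPM (n = 4). SPATA18, a p53 target in mitochondrial quality control, stood at 6.85 ± 1.52 CPM (n = 3) against 2.45 ± 1.09 CPM (n = 4). Coding genes whose symbol an antisense member carries had 0 of 13, with 4 at an unadjusted p under 0.05 and a median of 0.13. Over these lists and the small nucleolar RNA hosts, without the cell type markers, 6 coding genes passed, all of them such hosts. That count was 3 without doxorubicin library 1, 4 without library 2, 44 without library 3 and 0 without any 1 of the stretch libraries. The share of all tested genes that passed was 0.197%, 2.47% and 32.2% without doxorubicin libraries 1, 2 and 3. It was 0.109% to 0.359% without 1 stretch library.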

How the data were processed

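RNA of 7 sorted A549 samples was made into libraries with an Ion AmpliSeq kit, which amplifies a short piece of each gene, per the labels' protocols. The authors deposited whole numbers, read here as estimated counts from Salmon 1.9 (fastp 0.20.1 and GRCh38 are also named, per the submitters' processing notes); the annotation is not given in the sources used here. Every row has a count in at least 3 libraries. Symbols in more than 1 row (64) were summed and the row Metazoa_SRP, no gene name, was left out (14647 rows, 14535 genes). The whole table was fitted with R 4.3.3, edgeR 4.0.16 (filterByExpr, TMM, robust quasi-likelihood F-test, Benjamini-Hochberg) and read at 0.05. CPM uses TMM-scaled totals, and log-CPM a prior count of 2. Alternatives used DESeq2 1.42.0, limma 3.58.1, other scalings, other filters and fewer libraries. The test was tried on simulated data. No library was a copy: chi-square per degree of freedom was at least 8.06 in 21 pairs. PCR reads carry no molecular identifiers.

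Coordinates and overlaps came from GENCODE 29 (GRCh38), with 35 members matched, and promoters and microRNAs from RefSeq (GRCh38.p14). Members, lists and alternatives were chosen with earlier results of these data known. Genes were named by rule: members past the threshold, the 3 with the highest mean CPM and the 3 with the lowest p in each name class, members of at least 10 CPM whose groups do not overlap, and up to 3 coding genes of lowest p per list. Partners and other members, such as MATR3, EHMT1, LINC00888 and LINC01521, were named after their values were seen, and the 1000-base distance, promoter features and positions of doxorubicin libraries were also chosen then. The values of 1 member, which is part of every count, and of 1 paraspeckle gene are not reported here.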

Additional observations from a re-analysis of the deposited data

Results flagged for a closer look

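LINC01006 stood at 4.30 CPM in stretch library 7, and at 2.94 to 3.14 CPM in the other 3 stretch libraries, a gap of 0.855 of the group's range. RAN stood at 539 CPM in stretch library 6, below 615 to 630 CPM in the other 3, with a gap of 0.836. GDF15 stood at 115 CPM in the same library, below 160 to 167 CPM, with a gap of 0.851. Each gap is above Dixon's 95% critical value for 4 values. These were 3 of 49 genes checked, and chance alone gives about 5% of groups such a gap.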

How the results depend on the processing

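No paired analysis was run because the labels give no pairing between the groups. The count of members past the threshold was 0 in all edgeR alternatives except 1, in which doxorubicin library 3 was left out, and 0 by limma-voom. It was 1 by DESeq2 (SNHG4) and 5 by limma-voom with library quality weights (among them ARRDC1-AS1, LINC01521, SNHG4 and ZNF561-AS1), where 47.0% of all genes passed. Leaving out 1 library at a time it ran from 0 to 3 (LHX4-AS1, SNHG4 and ZNF561-AS1 without doxorubicin library 3, where 32.2% of all genes passed). The members' median log2 fold change was 0.85 with library totals alone, where that of all genes was 0.71, and -0.21 with doxorubicin library 3 alone; without 1 library it ran from 0.05 to 0.27. The count of coding genes on the related lists, 6, was 2 with library totals, 16 by DESeq2 and 55 with quality weights, and 0 to 44 without 1 library. Of 210 single values of named members under an alternative, 188 kept their sign and their side of the threshold. Signs turned with library totals for ARRDC1-AS1 (0.20), ALOX12-AS1 (0.32), LINC01547 (0.39), LINC01006 (0.24) and MIRLET7BHG (0.31), each still below the median of all genes there. They turned with quality weights for LINC00998 (-0.10) and LINC01006 (0.51), with doxorubicin library 3 alone for LHX4-AS1 (-0.54), LINC01551 (-0.42), LINC01547 (0.29) and MIRLET7BHG (0.13), without doxorubicin library 2 for LHX4-AS1 (-0.035), LINC00998 (-0.080) and MIRLET7BHG (0.093), and without doxorubicin library 3 for LINC01006 (0.11). Leaving out 1 library, LHX4-AS1 ran from -0.035 to 1.32, LINC00998 from -0.080 to 0.53, LINC01006 from -0.75 to 0.11 and MIRLET7BHG from -0.82 to 0.093. The same alternatives were applied, after the data were seen, to 22 other genes named in the text, and signs turned in 7 of 381 values. A call was gained in 33 of these values, 15 with quality weights, 13 without doxorubicin library 3 and 5 by DESeq2 (RAN, CDKN1A, GDF15, ZNF561 and FLJ22447). It was lost in 26, of which 17 were without 1 stretch library, where 0.109% to 0.359% of all genes passed. The signs that turned were those of EXOC3 (0.020) and MATR3 (0.39) with library totals, LINC00888 (-0.0043) with quality weights, AGO2 (0.10), LINC01521 (-0.52) and EXOC3-AS1 (-0.014) with doxorubicin library 3 alone, and LINC01521 without doxorubicin library 1 (-0.051, and up to 2.37 without library 3). The cause was not tested, except that library totals shift all genes. Counts in doxorubicin library 2 limit most members.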

Other observations

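A further 40 genes of the table have a long non-coding type in GENCODE 29 but names outside the rule. Of these 21 were tested, 11 on the stretch side and 10 on the doxorubicin side, with a median log2 fold change of 0.09. By edgeR's quasi-likelihood test 2 of the 21 passed, where 2.32% of all tested genes did, each near the threshold with an adjusted p of 0.0412, and both are named here after their values were seen. TMEM78 was higher in stretch, at 3.74, 5.03, 5.41 and 4.84 CPM. After doxorubicin it had 1.19, 0 and 0.567 CPM, from 3, 0 and 3 counts. DSCR8 was higher in doxorubicin, at 5.96, 9.51 and 1.70 CPM against 0.267, 0.642, 0.865 and 0.538 CPM. Its stretch values came from 2, 6, 8 and 5 counts. FLJ22447, with far more counts, had 132, 104 and 113 CPM after doxorubicin and 76.2, 46.8, 62.8 and 50.3 CPM after stretch, without overlap, and did not pass (log2 fold change -0.98, adjusted p = 0.0857 by edgeR). Without 1 library at a time, TMEM78 kept its call only when doxorubicin library 2 or 3 was left out, and DSCR8 only without doxorubicin library 3. Leaving out 1 stretch library, only 0.109% to 0.359% of all tested genes passed. DSCR8 had too few counts to be tested without stretch library 5, 6 or 7.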
